A study of Mus musculus with 12 samples.

Results

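The genes described here make and run the lysosome and start autophagy. They are 39 named genes, chosen by their known function and with earlier results of these data known. Of them, 38 had a probe set of their own among the 18193 genes measured (Cd63 was not analysed here). By role they comprise 4 measured membrane proteins of the lysosome, 11 cathepsins and other proteases, 10 genes of glycan, sulfate and lipid breakdown, 3 parts of the proton pump, the TFE transcription factors Tfeb and Tfe3, and 8 autophagy genes.

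The lysosome is the acidic compartment in which the cell breaks down proteins, glycans and lipids. A proton pump in its membrane keeps the lumen acidic, and most hydrolases reach it tagged with mannose 6-phosphate. In autophagy, a double membrane encloses part of the cytoplasm and then fuses with the lysosome. Tfeb and Tfe3 are basic helix-loop-helix factors that bind E-box sequences, among them the CLEAR elements in the promoters of many lysosomal genes. Their activity is controlled largely by phosphorylation, by mTORC1 and also by ERK, which keeps them in the cytoplasm, so their mRNA level does not measure their activity.

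RNA was measured on 12 Affymetrix mouse genome arrays, 3 in each of 4 groups, from C790, a mouse melanoma cell line with mutant Nras. The groups were +dox cells with trametinib, +dox cells with DMSO, −dox cells with trametinib and −dox cells with DMSO, all at day 20 and after 72 h with the MEK inhibitor trametinib or with DMSO, its solvent. Cells of all 4 groups carried a doxycycline-inducible lentiviral cassette for Oct4, Sox2 and Klf4 with a blasticidin resistance gene, and a second lentiviral vector for the rtTA activator and mCherry. Doxycycline switched the cassette on in +dox cells, called partially reprogrammed, which were also selected with blasticidin, whereas −dox cells are the uninduced control. The labels do not give the trametinib dose for the arrays or say whether the replicates were separate cultures, so a p-value here speaks of the spread among these arrays, which may be technical. Values are log2 intensities, so a difference of 1 is a 2-fold change, and the precision is limited by the number of arrays.

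The drug was checked on 10 ERK output genes, each of which fell with trametinib in both cell states. Dusp6, a phosphatase induced by ERK, had 4.83, 5.24 and 4.81 in +dox trametinib arrays, against 12.04, 11.68 and 11.85 in +dox DMSO arrays. The value in −dox trametinib arrays was 3.75, 4.42 and 3.68, under the background level of 4.87 set from chemosensory receptor genes, against 11.98, 11.97 and 12.24 in −dox DMSO arrays. Among 9 melanocyte markers, Sox10, Mitf and Pmel were above background in every group, while Tyr, Tyrp1, Dct, Mlana, Slc45a2 and Oca2 were under it, and the summed linear level of the 9 was 466.9 to 636.1 in +dox trametinib arrays against 306.7 to 402.4 in +dox DMSO arrays, and 505.2 to 641.2 in −dox trametinib arrays against 348.5 to 452.3 in −dox DMSO arrays. Mitf was the single marker of the 9 called (in +dox cells), and the median change of the list was 0.03 in +dox cells and 0.12 in −dox cells. Of 13 leukocyte and macrophage markers, 5 or 6 were above background in each group. Csf1r, Cd68, Cd14, Laptm5 and Cd3e were above it in every group, Fcer1g in −dox trametinib and Itgam in +dox DMSO arrays. Ptprc, Adgre1, Lyz2, Cx3cr1, Aif1 and Tyrobp were under it in every group. The summed level was lower with trametinib in +dox cells (636.1 to 812.4 in trametinib arrays, 1003 to 1295 in DMSO arrays). It overlapped in −dox cells (797.2 to 1132 in trametinib arrays, 921.6 to 1659 in DMSO arrays). Of the 13, 0 were called higher and 1 lower with trametinib in +dox cells, and 1 higher and 0 lower in −dox cells. The median change of this list was -0.01 in +dox cells and 0.02 in −dox cells. Of 9 fibroblast markers, 5 were above background (Col1a1, Col3a1, Pdgfra, Pdgfrb and Dcn). With trametinib 3 of the 9 were called higher and 0 lower in +dox cells, and 4 higher and 1, Pdgfra, lower in −dox cells, with median changes of 0.21 in +dox cells and 0.10 in −dox cells. Under DMSO 5 of the 9 were lower in +dox than in −dox cells. The summed linear level of this list was 1784 to 2210 in +dox trametinib arrays against 588.0 to 1079 in +dox DMSO arrays, and 8637 to 10720 in −dox trametinib arrays against 3303 to 4110 in −dox DMSO arrays. The part of these shifts in the results on lysosomal genes was not tested. Of the 12 arrays, −dox DMSO replicate 1 stood apart with the lowest array weight in limma (0.195, against 0.520 to 6.98 for the others). The highest, 6.98, was that of −dox DMSO replicate 3, with 1.20 for replicate 2, so weighted −dox DMSO values rest mostly on replicate 3. Without −dox DMSO replicate 1, 25 members were called higher with trametinib in +dox cells and 20 in −dox cells, against 25 in +dox cells and 19 in −dox cells over all arrays, and 1 was lower in −dox cells. Between the states under DMSO, leaving it out gave 0 higher and 6 lower, against 2 higher and 4 lower over all arrays. In bulk RNA, fewer cells of a kind and less RNA per cell cannot be told apart.

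Promoter sequence was read first, because E-boxes are the sites the TFE factors bind. A RefSeq promoter window (GRCm38.p6, 250 bases before to 50 bases after the gene start) was matched for 35 of the 39 genes by symbol. CACGTG, the E-box, reads the same on both strands and was present in 13 of these 35 (37.1%), against 8.09% of all 27025 genes with a window. The longer palindrome TCACGTGA, which contains CACGTG and so is counted in both, was present in 6 (17.1%), against 1.12% of all genes. The members were chosen by function, and CLEAR elements are known from the promoters of many lysosomal genes. These shares therefore describe the choice of genes and are not a result of the arrays. The 6 were Mcoln1, Clcn7, Ctsa, Ctsd, Gla and Atp6v0d1. In the stretches below, given 5′ to 3′ on the strand of the gene, capitals mark every E-box or extended E-box. The first set shows members that rose with trametinib in at least one cell state: Mcoln1 (chr8:3500433-3500518, plus strand), Lamp1 (chr8:13159106-13159160, plus strand), Ctsd (chr7:142387879-142387966, minus strand) and Ctsf (chr19:4855046-4855131, plus strand).
Mcoln1: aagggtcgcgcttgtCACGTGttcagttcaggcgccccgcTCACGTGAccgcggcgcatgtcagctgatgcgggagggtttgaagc
Lamp1: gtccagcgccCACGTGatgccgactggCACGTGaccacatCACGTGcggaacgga
Ctsd: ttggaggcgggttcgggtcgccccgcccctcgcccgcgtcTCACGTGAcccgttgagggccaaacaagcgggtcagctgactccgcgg
Ctsf: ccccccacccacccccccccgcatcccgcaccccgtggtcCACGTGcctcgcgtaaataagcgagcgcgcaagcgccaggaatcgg

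The extended E-box of Mcoln1 lies 38 bases before the gene start, and a plain E-box stands further upstream in the same stretch. The Lamp1 stretch holds 3 of the 4 E-boxes of its window, the nearest 9 bases from the start. The second set shows 3 members whose windows hold an E-box and whose RNA was not called changed in either cell state: Naglu (chr11:101069981-101070066, plus strand), Gaa (chr11:119267783-119267868, plus strand) and Glb1 (chr9:114400990-114401075, plus strand).
Naglu: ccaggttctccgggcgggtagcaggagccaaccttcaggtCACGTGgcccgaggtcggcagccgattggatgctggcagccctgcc
Gaa: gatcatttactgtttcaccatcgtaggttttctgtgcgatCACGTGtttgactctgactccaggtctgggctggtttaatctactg
Glb1: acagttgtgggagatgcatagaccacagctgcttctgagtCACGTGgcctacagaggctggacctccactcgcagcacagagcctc

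Both sets were chosen for holding an E-box. A match is a description of these letters and not of a bound site.

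**Figure D1:**
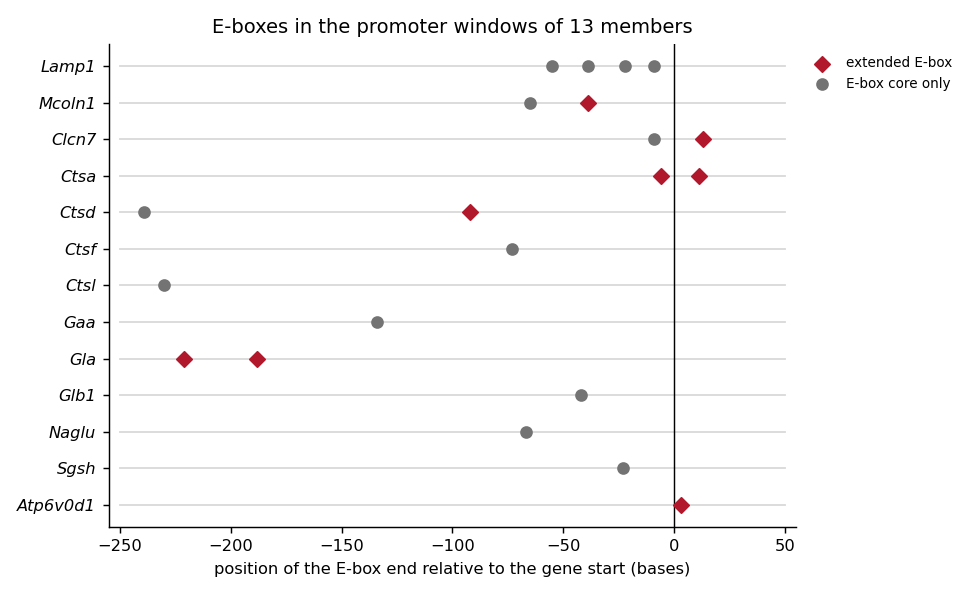
Position of E-boxes in the RefSeq promoter windows of the 13 members that hold one. The horizontal axis is the distance from the gene start in bases, each line is a gene, red diamonds mark TCACGTGA and grey dots mark CACGTG outside it. Lamp1 holds 4 E-boxes, the largest number among the 13.

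Trametinib against DMSO asks how the lysosomal programme responds to a block of MEK. In +dox cells the members moved mostly upward: 25 of 38 rose, 0 fell and 13 were not called at an adjusted p under 0.05 in limma, a share of 65.8% against 13.8% of all 18193 genes called higher and 12.5% called lower. Beside the 0 called lower, 0 members were lower at an unadjusted p under 0.05 (16.4% of all genes), and 26 were higher (18.7% of all genes). Array weights in limma gave 1 lower call, that of Gabarapl1, an LC3 relative (log2 change -0.41, adjusted p = 0.0463). The median log2 change was 0.73 over the members and 0.02 over all genes. In −dox cells 19 of 38 rose, 0 fell and 19 were not called, a share of 50.0% against 11.6% of all genes called higher and 10.8% called lower, and the median log2 change was 0.51 against 0.06 over all genes. At an unadjusted p under 0.05, 24 members were higher (18.5% of all genes) and 1, Ctsh, was lower (15.2% of all genes) in −dox cells. Ctsh was called lower there when only genes above background were tested (adjusted p = 0.0494 in limma), and Ctsh and Glb1 with arrays weighted by quality (adjusted p = 0.00171 and 0.0442). The weights also raised the number called higher in −dox cells to 26, the added members being Atg9a, Map1lc3b, Mcoln1, Scpep1, Tfe3, Tfeb and Wipi1, with 25 in +dox cells. Most of the weight among the −dox DMSO arrays was on replicate 3. The fold changes were modest: 11 members rose over 2-fold in +dox cells (4.74% of all genes did) and 5 in −dox cells (3.11% of all genes).

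**Figure D2:**
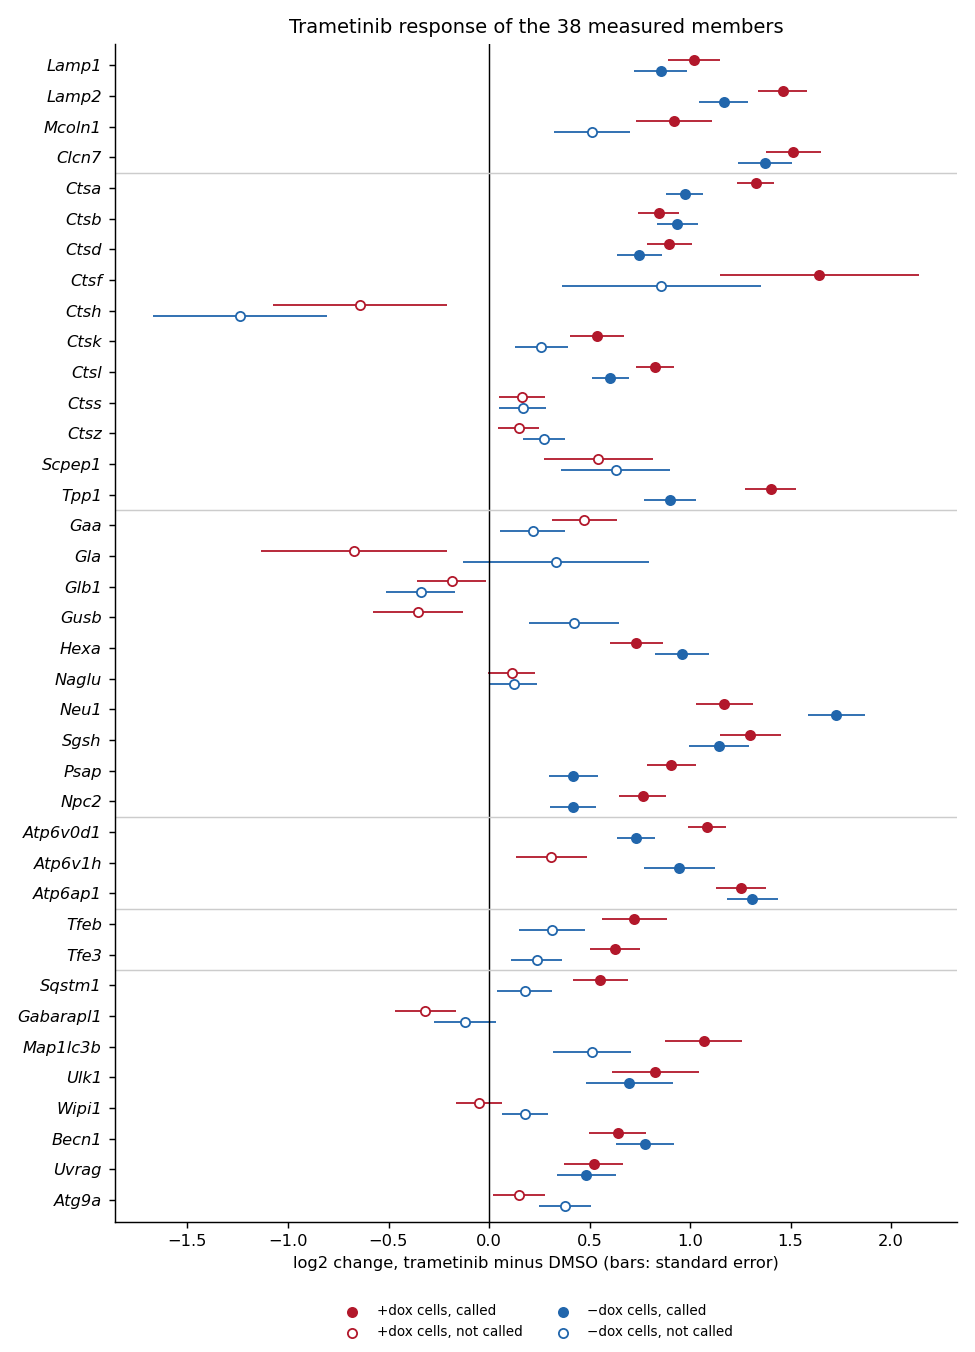
Log2 change with trametinib against DMSO (horizontal axis) for each of the 38 measured members, grouped by role; red is +dox cells, blue is −dox cells, bars are the standard error from limma and filled points passed an adjusted p under 0.05. The 25 filled red and 19 filled blue points all lie to the right of 0.

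The members that rose did so with little overlap between arrays. Of the 38, 27 had all +dox trametinib arrays above all +dox DMSO arrays (22.1% of all genes did) and 0 had them all below (18.6% of all genes). In −dox cells 22 were separated upward (20.4% of all genes) and 1, Glb1, downward (15.2% of all genes). The linear intensities summed over the 38 members were 99320 to 109130 in +dox trametinib arrays and 57917 to 63661 in +dox DMSO arrays. The sums were 108870 to 111010 in −dox trametinib arrays and 70229 to 73427 in −dox DMSO arrays.

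The calls of the 2 states overlapped, and their trametinib comparisons use different arrays but one estimate of the spread. 18 members rose in both, where 7.63% of all genes were called higher in both. On the probe set used, another 7 were called in +dox cells alone, namely Mcoln1, Ctsf, Ctsk, Tfeb, Tfe3, Sqstm1 and Map1lc3b. Atp6v1h was called in −dox cells alone. Other probe sets of Mcoln1 and Map1lc3b were called higher in −dox cells too. A call in one state and not in the other does not show that the states differ, and the test of that difference follows further on. The 12 called in neither were Ctsh, Ctss, Ctsz, Scpep1, Gaa, Gla, Glb1, Gusb, Naglu, Gabarapl1, Wipi1 and Atg9a.

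Among the membrane proteins, 4 of 4 rose in +dox cells and 3 of 4 in −dox cells. Clcn7, the chloride and proton exchanger of the lysosomal membrane, had 8.38, 8.51 and 8.13 in +dox trametinib arrays, against 6.61, 7.07 and 6.80 in +dox DMSO arrays. It had 8.56, 8.58 and 8.47 in −dox trametinib arrays, against 7.29, 7.16 and 7.04 in −dox DMSO arrays. The arrays did not overlap in either state, and Clcn7 rose by 1.51 ± 0.14 in +dox cells (SE; 2.85-fold, adjusted p = 2.69e-05 in limma) and by 1.37 ± 0.14 in −dox cells (2.59-fold, adjusted p = 8.48e-05).

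Lamp2, an abundant glycoprotein of the membrane that is needed for fusion with autophagosomes, had 12.69, 12.53 and 12.50 in +dox trametinib arrays, against 11.23, 10.86 and 11.25 in +dox DMSO arrays. In −dox cells it had 12.37, 12.63 and 12.59 with trametinib, against 11.32, 11.35 and 11.42 with DMSO. All trametinib arrays were above all DMSO arrays in both states, with rises of 1.46 ± 0.12 in +dox cells (2.75-fold, adjusted p = 1.98e-05 in limma) and 1.17 ± 0.12 in −dox cells (2.24-fold, adjusted p = 0.000118). Lamp1, its relative, rose by 1.02 (+dox) and 0.85 (−dox). Mcoln1, the calcium channel that releases calcium from the lysosome, rose by 0.92 in +dox cells (adjusted p = 0.00382) and had a change of 0.51 in −dox cells that was not called (adjusted p = 0.0761). The 3 Mcoln1 probe sets disagreed, with changes between -0.39 and 1.29 in +dox cells and between -0.87 and 1.05 in −dox cells. In +dox cells 2 of them were called higher and 0 lower. In −dox cells the second brightest was called higher (1.05, adjusted p = 0.000458 in limma over all probe sets). The -0.87 was that of the faintest (mean 5.74 over the arrays), which was not called.

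Of the 11 proteases, 7 rose in +dox cells and 5 in −dox cells. Ctsa, cathepsin A, a carboxypeptidase that also protects Neu1 and Glb1 in a complex, had 11.46, 11.40 and 11.39 in +dox trametinib arrays, against 10.12, 10.06 and 10.09 in +dox DMSO arrays. In −dox cells Ctsa had 11.35, 11.64 and 11.52 with trametinib, against 10.45, 10.60 and 10.54 with DMSO. Both states were separated without overlap, by 1.33 ± 0.09 in +dox cells (2.51-fold, adjusted p = 8.88e-06 in limma) and 0.97 ± 0.09 in −dox cells (1.96-fold, adjusted p = 7.32e-05).

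Tpp1, tripeptidyl peptidase 1, which removes tripeptides from the ends of proteins, had 12.24, 12.18 and 11.85 in +dox trametinib arrays, against 10.82, 10.54 and 10.71 in +dox DMSO arrays. It had 12.15, 11.86 and 12.01 in −dox trametinib arrays, against 11.22, 11.06 and 11.04 in −dox DMSO arrays. Tpp1 rose by 1.40 ± 0.13 in +dox cells (2.64-fold, adjusted p = 3.08e-05 in limma) and by 0.90 in −dox cells (adjusted p = 0.00062), with no overlap of arrays in either state. The endoproteases Ctsb, Ctsd and Ctsl rose in +dox cells by 0.84, 0.90 and 0.83, and in −dox cells by 0.94, 0.75 and 0.60.

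Ctsf, a cysteine protease, had the largest estimate of any member in +dox cells and also the widest spread. Its values were 8.61, 7.73 and 9.01 in +dox trametinib arrays, against 7.58, 5.80 and 7.04 in +dox DMSO arrays, separated by a narrow margin. In −dox cells Ctsf had 8.12, 7.18 and 7.90 with trametinib, against 7.58, 6.16 and 6.89 with DMSO, and the arrays overlapped. The change was 1.64 ± 0.50 in +dox cells (3.12-fold, adjusted p = 0.0298 in limma) and 0.86 in −dox cells (adjusted p = 0.26). Replicate 2 was the lowest array of each of the 4 groups. The +dox call ended without +dox trametinib replicate 1 or 3 or +dox DMSO replicate 2 or 3 (adjusted p 0.0576 to 0.117), and with the mean of its probe sets (0.80, adjusted p = 0.051).

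Ctsk, the collagen-degrading cathepsin of osteoclasts, rose by 0.54 in +dox cells (adjusted p = 0.0112 in limma, or 0.0527 without +dox trametinib replicate 1). Ctsh, an aminopeptidase, ran the other way. It had 5.72, 5.80 and 6.37 in +dox trametinib arrays, against 7.23, 5.77 and 6.82 in +dox DMSO arrays, and the groups overlapped (-0.64, not called). Values in −dox cells were 6.76, 8.00 and 7.00 with trametinib, against 7.80, 9.01 and 8.67 with DMSO, which also overlapped (-1.24, adjusted p = 0.0629). Ctsh was called lower in −dox cells when −dox DMSO replicate 1, −dox trametinib replicate 2 or +dox DMSO replicate 2 was left out (adjusted p = 0.0252, 0.0281 and 0.0383 in limma). Ctsz and Scpep1, both carboxypeptidases, were not called (0.15 and 0.54 in +dox cells; 0.27 and 0.63 in −dox cells), although the other Scpep1 probe set rose by 1.32 (+dox) and 1.42 (−dox). Ctss, the cathepsin of antigen-presenting cells, was under background on all 12 arrays (2.91 to 3.41).

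**Figure D3:**
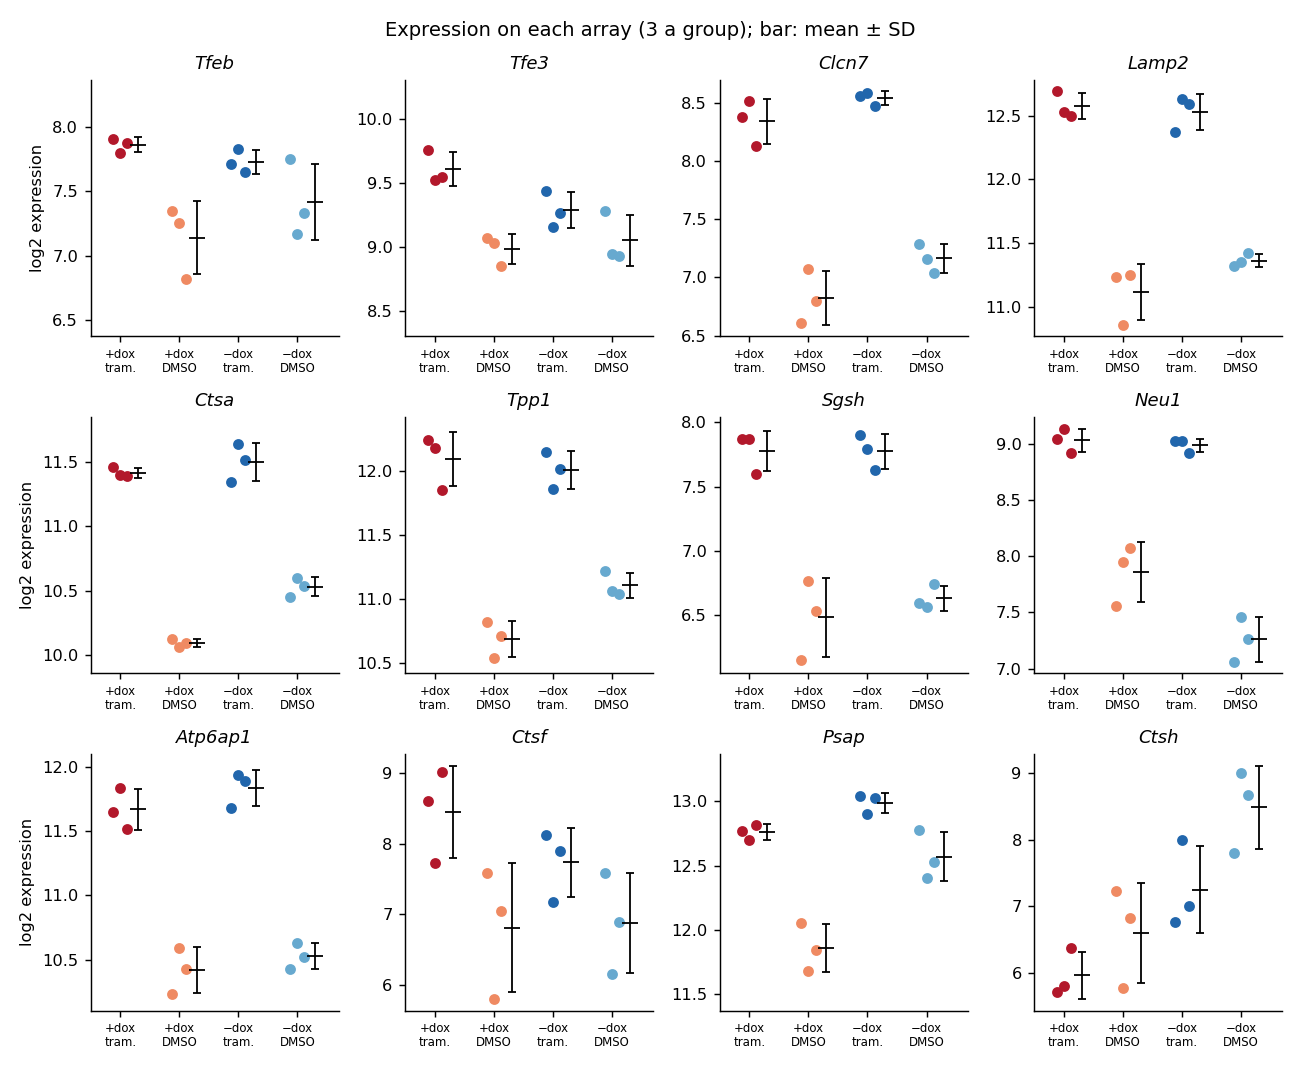
Log2 intensity (vertical axis) of 12 members on every array, with +dox trametinib, +dox DMSO, −dox trametinib and −dox DMSO from left to right in each panel. Dots are arrays, bars are the mean ± SD of 3 arrays, and each panel has its own vertical range. Clcn7, Lamp2, Ctsa and Tpp1 show trametinib arrays above DMSO arrays in both states, whereas Ctsf and Ctsh spread widely within groups.

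Of the 10 genes of glycan, sulfate and lipid breakdown, 5 rose in +dox cells and the same 5 in −dox cells: Neu1, Sgsh, Hexa, Psap and Npc2. Sgsh, the sulfamidase of heparan sulfate, had 7.87, 7.87 and 7.60 in +dox trametinib arrays, against 6.15, 6.76 and 6.53 in +dox DMSO arrays. Sgsh values in −dox cells were 7.90, 7.79 and 7.63 with trametinib, against 6.59, 6.56 and 6.74 with DMSO. The rise was 1.30 ± 0.15 in +dox cells (2.46-fold, adjusted p = 0.000128 in limma) and 1.14 ± 0.15 in −dox cells (2.21-fold, adjusted p = 0.000403), without overlap of arrays. The other Sgsh probe set had a change of 0.15 in +dox cells that was not called, and was called higher in −dox cells (0.36).

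Neu1, the sialidase that clips terminal sialic acids, had 9.04, 9.13 and 8.92 in +dox trametinib arrays, against 7.56, 7.95 and 8.07 in +dox DMSO arrays. In −dox cells Neu1 had 9.02, 9.02 and 8.92 with trametinib, against 7.06, 7.46 and 7.26 with DMSO. The 6 trametinib arrays of both states lay between 8.92 and 9.13, while the +dox DMSO arrays were all above the −dox DMSO arrays. Neu1 rose by 1.17 in +dox cells (2.25-fold, adjusted p = 0.000164 in limma) and by 1.73 ± 0.14 in −dox cells (3.31-fold, adjusted p = 3.23e-05).

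Psap, prosaposin, the precursor of the saposins that present lipids to hydrolases, had 12.77, 12.70 and 12.82 in +dox trametinib arrays, against 12.05, 11.68 and 11.84 in +dox DMSO arrays. Psap had 13.04, 12.90 and 13.03 in −dox trametinib arrays, against 12.78, 12.40 and 12.53 in −dox DMSO arrays. Arrays were separated in both states, by 0.91 in +dox cells (adjusted p = 0.000306 in limma) and by 0.42 in −dox cells (adjusted p = 0.0297). Leaving out −dox trametinib replicate 1 or 3 or −dox DMSO replicate 2 or 3 ended that call (adjusted p 0.081 to 0.107), as did a further quantile normalisation (adjusted p = 0.135). Npc2, a cholesterol carrier of the lumen, rose by 0.76 (+dox) and 0.42 (−dox), where the call ended without −dox trametinib replicate 1 or 2 or −dox DMSO replicate 1 or 3 (adjusted p 0.0568 to 0.0773). Hexa, a subunit of beta-hexosaminidase, rose by 0.73 (+dox) and 0.96 (−dox).

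The other 5 did not pass in either state, and their estimates ran both ways. Gaa, which degrades glycogen, had changes of 0.47 in +dox cells (adjusted p = 0.0522 in limma, or 0.0474 with the replicate number as a block) and 0.22 in −dox cells. Naglu, which acts on heparan sulfate, had 0.11 in +dox cells and 0.12 in −dox cells. Glb1, beta-galactosidase, had -0.19 in +dox cells and -0.34 in −dox cells (adjusted p = 0.195). Gla, alpha-galactosidase A, had -0.67 in +dox cells and 0.33 in −dox cells, whereas its other probe set just above background had 0.43 in +dox cells and was called higher in −dox cells (0.94, adjusted p = 0.0269 over all probe sets). Gusb, beta-glucuronidase, had -0.35 in +dox cells and 0.42 in −dox cells, with 8.68, 9.01 and 8.22 in +dox trametinib arrays against 8.92, 9.20 and 8.85 in +dox DMSO arrays, and 9.12, 9.86 and 9.42 in −dox trametinib arrays against 8.82, 9.27 and 9.04 in −dox DMSO arrays.

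Of the 3 proton pump genes, 2 rose in +dox cells and 3 in −dox cells. Atp6ap1, an accessory subunit of the pump, had 11.65, 11.84 and 11.52 in +dox trametinib arrays, against 10.23, 10.59 and 10.43 in +dox DMSO arrays. Atp6ap1 values were 11.68, 11.94 and 11.89 in −dox trametinib arrays, against 10.43, 10.63 and 10.52 in −dox DMSO arrays. The shift was of like size and without overlap in both states, 1.25 in +dox cells (adjusted p = 5.11e-05 in limma) and 1.31 ± 0.13 in −dox cells (2.48-fold, adjusted p = 7.29e-05). Atp6v0d1, a subunit of the membrane sector, rose by 1.08 (+dox) and 0.73 (−dox). Atp6v1h, a regulatory subunit of the catalytic sector, rose by 0.95 in −dox cells (adjusted p = 0.00285) but not with the mean of its probe sets (0.17, adjusted p = 0.457), and had a change of 0.31 in +dox cells (adjusted p = 0.252).

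Of the 8 autophagy genes, 5 rose in +dox cells and 3 in −dox cells. Becn1, a subunit of the lipid kinase complex that starts the autophagosome, rose by 0.64 in +dox cells (adjusted p = 0.00619 in limma) and by 0.78 in −dox cells (adjusted p = 0.00262). Of its 4 probe sets above background, 1 was called higher in +dox cells (changes 0.17 to 0.64) and 3 in −dox cells (0.24 to 0.78). Uvrag, the partner of Becn1, rose by 0.52 (+dox) and 0.48 (−dox). Ulk1, the kinase that starts autophagy, rose by 0.83 in +dox cells (adjusted p = 0.0146) and by 0.70 in −dox cells (adjusted p = 0.039), where the arrays overlapped. Map1lc3b, the LC3 protein that is coupled to the autophagosome membrane, had 12.82, 12.35 and 12.40 in +dox trametinib arrays against 11.87, 11.04 and 11.46 in +dox DMSO arrays, a rise of 1.07 (adjusted p = 0.00188). It had 12.59, 12.45 and 12.62 in −dox trametinib arrays against 12.21, 11.91 and 12.01 in −dox DMSO arrays, separated but not called (0.51, adjusted p = 0.0857), while 2 other Map1lc3b probe sets above background were called higher there (0.64, adjusted p = 0.0419, and 0.54, adjusted p = 0.0344, over all probe sets) and another, under background, was called lower (-1.11, adjusted p = 0.0472).

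Sqstm1, the cargo receptor p62, rose by 0.55 in +dox cells (adjusted p = 0.011 in limma, or 0.137 with the mean of its probe sets) and had a change of 0.18 in −dox cells. Gabarapl1 had -0.32 in +dox cells and -0.12 in −dox cells. Atg9a, the membrane-spanning autophagy protein, had 0.15 in +dox cells and 0.38 in −dox cells. Wipi1, which binds the lipid made by the Becn1 complex, had -0.05 in +dox cells and 0.18 in −dox cells on the probe set that represents it, although 3 of its 6 probe sets rose in +dox cells and 2 in −dox cells.

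The calls of Uvrag and Ulk1 lay close to the threshold and ended with 1 array fewer, although the rises kept their direction. The Uvrag call in +dox cells ended without +dox trametinib replicate 1 or 2 or +dox DMSO replicate 1 or 3 (change 0.46 to 0.53, adjusted p 0.0573 to 0.0843 in limma), and in −dox cells without any of the −dox trametinib arrays, −dox DMSO replicate 1 or 3 or +dox DMSO replicate 3 (change 0.32 to 0.53, adjusted p 0.0506 to 0.114), the change of 0.32 being that without −dox DMSO replicate 1. Leaving out an array of the other state does not alter the change itself, only its error. The Ulk1 call in +dox cells ended without +dox trametinib replicate 3 or +dox DMSO replicate 1 (change 0.73 to 0.76, adjusted p 0.0529 to 0.0548). In −dox cells it ended without any of the +dox trametinib arrays, +dox DMSO replicate 3, or replicate 2 or 3 of either −dox group (change 0.57 to 0.70, adjusted p 0.0506 to 0.141).

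Tfeb and Tfe3, the factors that bind E-boxes of this kind, both rose in +dox cells and were not called in −dox cells. Tfeb had 7.91, 7.80 and 7.88 in +dox trametinib arrays, against 7.35, 7.25 and 6.82 in +dox DMSO arrays. Tfeb values in −dox cells were 7.71, 7.83 and 7.65 with trametinib, against 7.75, 7.17 and 7.33 with DMSO. The arrays were separated in +dox cells and overlapped in −dox cells through 1 DMSO array, and Tfeb rose by 0.72 ± 0.16 in +dox cells (1.65-fold, adjusted p = 0.00669 in limma) while its change of 0.31 ± 0.16 in −dox cells was not called (adjusted p = 0.209). Without that array, −dox DMSO replicate 1, the −dox change was 0.48 (adjusted p = 0.0393).

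Tfe3 had 9.76, 9.52 and 9.55 in +dox trametinib arrays, against 9.07, 9.03 and 8.85 in +dox DMSO arrays. In −dox cells Tfe3 had 9.44, 9.16 and 9.27 with trametinib, against 9.28, 8.95 and 8.93 with DMSO. The groups were again separated in +dox cells only, where Tfe3 rose by 0.63 ± 0.13 (1.54-fold, adjusted p = 0.00341 in limma), and in −dox cells its change was 0.24 ± 0.13 (adjusted p = 0.219). Array weights in limma called both in −dox cells (adjusted p = 0.0149 for Tfeb and 0.00918 for Tfe3). These weights put most of the −dox DMSO group on replicate 3 (6.98, against 1.20 and 0.195 for replicates 2 and 1). No E-box was found in the 3 Tfeb windows or the 2 Tfe3 windows.

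Set against the promoter windows, members with an E-box had somewhat larger estimates, with wide overlap. Of the 13 with an E-box, 9 rose in +dox cells with a median log2 change of 0.92 (-0.67 to 1.64), and of the 21 measured members without one, 14 rose with a median of 0.63 (-0.35 to 1.46). In −dox cells 7 of the 13 rose with a median of 0.73 (-0.34 to 1.37), and 9 of the 21 without one rose with a median of 0.42 (-0.12 to 1.73). Of the 6 with the extended E-box, 5 rose in +dox cells (median 1.00) and 4 in −dox cells (median 0.74), and Gla was called in neither state. Neu1, Lamp2, Tpp1 and Atp6ap1, 4 of the members with the larger rises, hold no E-box in their windows. The sets also differ in role. The set without an E-box includes Tfeb, Tfe3 and autophagy genes, whereas the set with one has only lysosomal genes. The part of role in the gap was not tested. These values describe the list, and no test was made between the sets.

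The +dox response was then set against the −dox response directly, with the interaction contrast of the same fit. No member passed this test: 0 of 38 were called in limma, where 0.258% of all genes were called with a larger and 0.0715% with a smaller response in +dox cells, and 0 were called with any 1 array left out or under the other settings tried. At an unadjusted p under 0.05, 7 of 38 passed (18.4%, against 11.6% of all genes), 4 with a larger response in +dox cells and 3 with a smaller one. The smallest p-values were those of Psap (0.49 ± 0.17, adjusted p = 0.284), Neu1 (-0.56 ± 0.20, adjusted p = 0.297) and Tpp1 (0.50 ± 0.18, adjusted p = 0.299). For Tfeb the difference was 0.41 ± 0.23 (adjusted p = 0.538) and for Tfe3 0.39 ± 0.18 (adjusted p = 0.434), so that the calls in +dox cells alone were not shown to differ from the −dox response. The differences ran from -1.01 to 0.79 with a median of 0.15, against -0.02 over all genes, and were positive for 23 members and negative for 15. The sign depended on the scaling. With each array centred on its median, the median was -0.03, with 16 positive and 22 negative, against -0.21 over all genes. The median of the members was above that of all genes under both scalings.

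Between the states, fewer of these genes were called than between trametinib and DMSO. These comparisons share their arrays with those of trametinib, so their values are given side by side and not as separate evidence. Under DMSO, 2 of 38 members were higher in +dox than in −dox cells, against 2.87% of all genes, and 4 were lower, against 3.28% of all genes. The median log2 difference was -0.16, with 10 members positive and 28 negative, against 0.01 over all genes. With each array centred on its median it was -0.07, with 16 positive and 22 negative, against 0.11 over all genes. At an unadjusted p under 0.05, 3 members were higher (1820 of all 18193 genes were) and 12 lower (1852 of all genes). Arrays were separated upward for 3 members (11.3% of all genes) and downward for 14 (11.1% of all genes). Under trametinib, 0 were higher (1.95% of all genes) and 1 was lower (1.42% of all genes) in limma, with 2 higher (7.62% of all genes) and 4 lower (6.81% of all genes) at an unadjusted p under 0.05. The median was -0.04, with 18 members positive and 20 negative, against -0.02 over all genes. With centred arrays it was -0.13, with 8 positive and 30 negative, against -0.11 over all genes. Arrays were separated upward for 2 members (9.45% of all genes) and downward for 6 (10.6% of all genes).

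**Figure D4:**
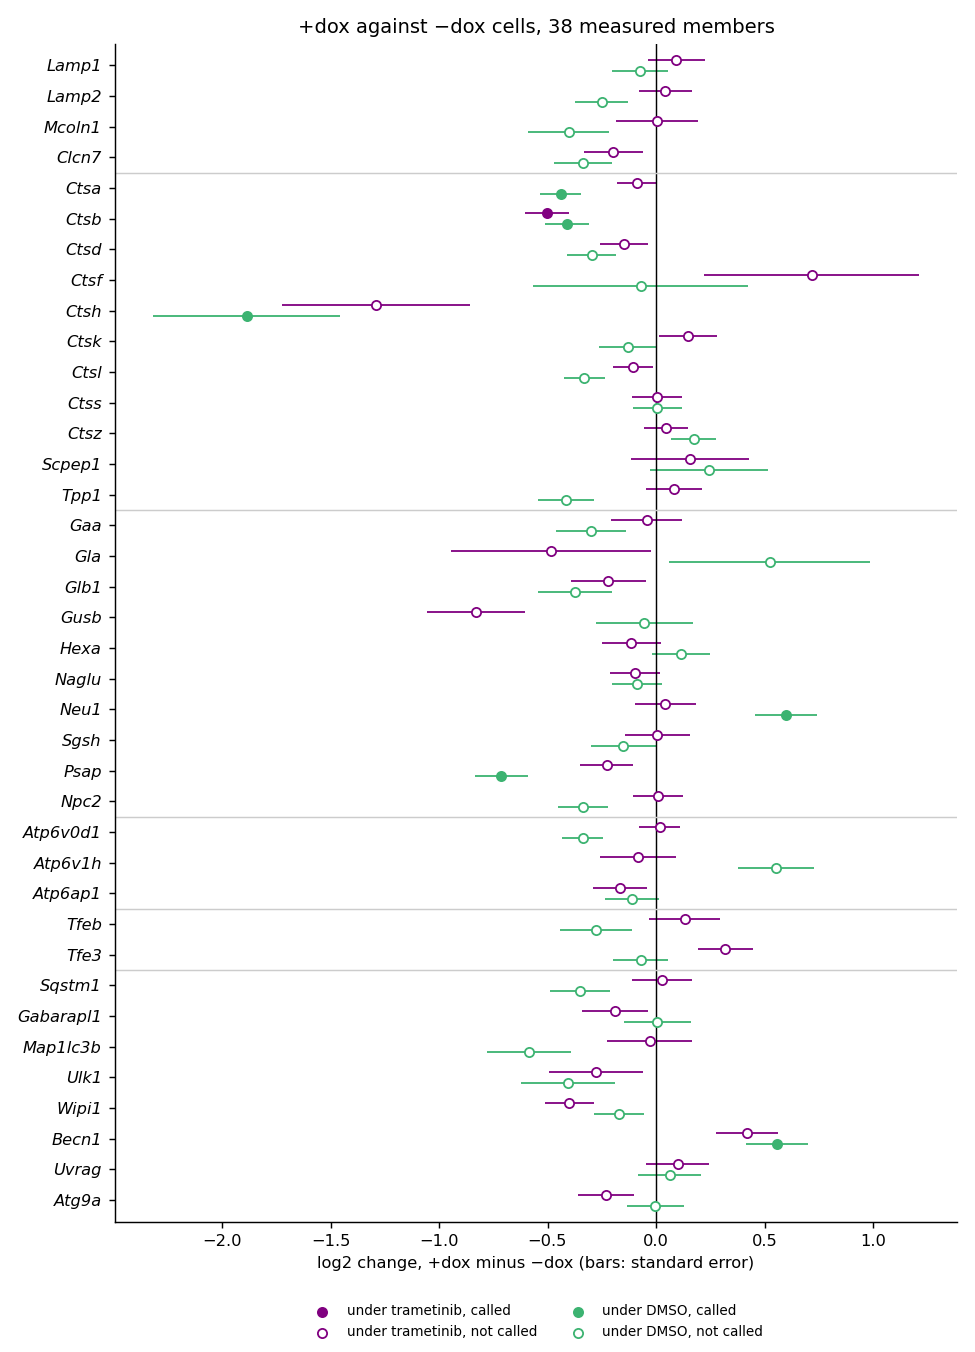
Log2 difference of +dox against −dox cells (horizontal axis) for the 38 members, under trametinib (purple) and under DMSO (green), with the standard error from limma; filled points passed an adjusted p under 0.05. Under DMSO 28 of 38 points lie to the left of 0 (22 with each array centred on its median), and Ctsh lies farthest left.

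The 4 members that were lower under DMSO were Ctsh, Psap, Ctsa and Ctsb. Ctsh had 7.23, 5.77 and 6.82 in +dox DMSO arrays, against 7.80, 9.01 and 8.67 in −dox DMSO arrays, with no overlap (-1.89 ± 0.43, adjusted p = 0.0279 in limma). Under trametinib it had 5.72, 5.80 and 6.37 in +dox cells, against 6.76, 8.00 and 7.00 in −dox cells, also without overlap but not called (-1.29, adjusted p = 0.162). Of the 38 measured, Ctsh had the largest difference between the states under each treatment.

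Psap fell by 0.71 ± 0.12 in +dox cells under DMSO (adjusted p = 0.00729 in limma), and Ctsa fell by 0.44 ± 0.09 (adjusted p = 0.0198). Ctsb, a cysteine protease, had 12.15, 11.87 and 12.03 in +dox DMSO arrays, against 12.33, 12.54 and 12.41 in −dox DMSO arrays (-0.41 ± 0.10, adjusted p = 0.0371). Under trametinib Ctsb had 12.93, 12.76 and 12.89 in +dox cells, against 13.30, 13.41 and 13.38 in −dox cells, and was the only member called there (-0.50 ± 0.10, adjusted p = 0.0201). The Ctsb arrays did not overlap under either treatment.

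Neu1 and Becn1 were higher in +dox than in −dox cells under DMSO. Neu1 had 7.56, 7.95 and 8.07 in +dox DMSO arrays, against 7.06, 7.46 and 7.26 in −dox DMSO arrays (0.60 ± 0.14, adjusted p = 0.0317 in limma). Becn1 had 10.98, 11.03 and 10.78 in +dox DMSO arrays, against 10.46, 10.25 and 10.41 in −dox DMSO arrays (0.56 ± 0.14, adjusted p = 0.0437). With trametinib Becn1 had 11.71, 11.62 and 11.38 in +dox cells, against 11.37, 10.86 and 11.22 in −dox cells (0.42, adjusted p = 0.171). Tfeb and Tfe3 differed by -0.28 and -0.07 under DMSO and by 0.13 and 0.32 under trametinib, none of them called.

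These calls between the states were close to the threshold. Of the 6 under DMSO, Psap alone was called with each array left out in turn. The call of Ctsa ended without replicate 2 or 3 of either DMSO group (adjusted p 0.0647 to 0.075 in limma), and that of Ctsh without the same arrays (0.0755 to 0.106). The Neu1 call ended without +dox DMSO replicate 2 or 3 or −dox DMSO replicate 1 or 3 (0.0759 to 0.134), that of Ctsb without any of 8 arrays (0.0513 to 0.143) and that of Becn1 without any of 9 (0.0548 to 0.155). Fitted on the 6 DMSO arrays alone, none of the 6 was called. Under trametinib the Ctsb call ended without +dox trametinib replicate 2 or −dox trametinib replicate 2 or 3 (0.0787 to 0.0912). With the replicate number as a block, Map1lc3b (-0.59, adjusted p = 0.0254, or 0.107 without the block) and Tpp1 (-0.42, adjusted p = 0.0439, or 0.0855 without the block) were also lower under DMSO, and Gusb was lower under trametinib (-0.83, adjusted p = 0.0119, or 0.0772 without the block).

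Genes of 6 other lists, on the lysosome, autophagy and mTORC1 control, were called higher far more often than lower with trametinib. These lists too were chosen with earlier results of these data known, so they are not separate evidence. Among all genes 13.8% were called higher and 12.5% lower in +dox cells, and 11.6% higher and 10.8% lower in −dox cells. Of 29 other lysosomal hydrolases measured, 19 rose and 0 fell in +dox cells and 17 rose and 0 fell in −dox cells, with median log2 changes of 0.64 in +dox cells and 0.53 in −dox cells. Dpp7, a dipeptidyl peptidase, rose by 2.59 in +dox cells (adjusted p = 5.07e-05 in limma) and by 1.77 in −dox cells (adjusted p = 0.000706). Ctsc, the aminopeptidase that activates serine proteases of leukocyte granules, rose by 2.36 (+dox) and 2.30 (−dox). Sumf1, which activates sulfatases such as Sgsh, rose by 2.08 (+dox) and 1.48 (−dox). Pla2g15, a lysosomal phospholipase, rose by 1.25 in −dox cells. In +dox cells it had 7.87, 7.97 and 7.90 with trametinib, against 7.12, 7.57 and 7.82 with DMSO.

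Of 21 other membrane proteins, 13 rose in +dox cells and 11 in −dox cells, with 0 lower in either and medians of 0.61 in +dox cells and 0.59 in −dox cells. Ctns, the cystine exporter, rose by 1.74 (+dox) and 0.95 (−dox). Ostm1, the partner subunit of Clcn7, rose by 1.43 (+dox) and 1.40 (−dox), close to the changes of Clcn7 itself. Gpr137b rose by 1.55 (+dox) and 1.57 (−dox), and the cation channel gene Tpcn1 by 1.38 (+dox) and 0.87 (−dox). Of 16 other proton pump subunits, 12 rose and 0 fell in each state (median 0.63 in +dox cells and 0.65 in −dox cells), among them Atp6v1d (1.39 in +dox cells, 0.82 in −dox cells), Atp6v0a2 (1.32 in +dox cells, 1.31 in −dox cells), Atp6v0b (1.20 in +dox cells, 1.48 in −dox cells) and the catalytic subunit Atp6v1a (0.92 in +dox cells, 1.18 in −dox cells).

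The sorting and fusion list of 19 genes had 12 higher and 1 lower in +dox cells and 11 higher and 1 lower in −dox cells (median 0.41 in +dox cells and 0.43 in −dox cells). Gnptg and Gnptab, subunits of the enzyme that starts the mannose 6-phosphate tag, rose in +dox cells by 2.11 and 0.75, and in −dox cells by 1.44 and 0.90, and Nagpa, which completes the tag, rose by 1.05 (+dox) and 0.91 (−dox). Vps41, a tethering subunit for fusion, rose by 1.04 (+dox) and 0.53 (−dox), whereas Vps16, also of the tethering complexes, was the single gene that fell, by 0.75 (+dox) and by 0.74 (−dox).

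Other autophagy genes were more mixed: of 41 measured, 16 rose and 3 fell in +dox cells, and 17 rose and 0 fell in −dox cells, with medians of 0.30 in +dox cells and 0.27 in −dox cells. Nrbf2, a part of the Becn1 complex, rose by 1.19 (+dox) and 1.50 (−dox). Ulk2, a relative of Ulk1, rose by 1.24 (+dox) and 0.82 (−dox), and Rb1cc1, the scaffold of the Ulk1 complex, by 0.95 (+dox) and 0.62 (−dox). Bnip3, a receptor for the removal of mitochondria, rose by 0.71 (+dox) and 1.19 (−dox). Wdr45, a relative of Wipi1, and Atg2b, a lipid transfer protein, fell by 0.75 and by 0.60 in +dox cells.

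Of 24 relatives of the TFE factors and genes of mTORC1 control, 9 rose and 1 fell in +dox cells, and 7 rose and 0 fell in −dox cells, with medians of 0.35 in +dox cells and 0.24 in −dox cells. Rragd, a GTPase that brings mTORC1 and the TFE factors to the lysosome, had 8.93, 8.43 and 7.30 in +dox trametinib arrays, against 6.10, 4.97 and 5.68 in +dox DMSO arrays (2.64, adjusted p = 0.00356 in limma). It was not called in −dox cells, where it had 7.76, 5.94 and 5.99 with trametinib, against 4.48, 5.45 and 4.95 with DMSO. Rragc, its close relative, rose by 1.14 (+dox) and 0.96 (−dox). Mitf, a melanocyte factor of the same family as Tfeb, rose by 1.22 in +dox cells (adjusted p = 0.00765 in limma), and it is also 1 of the melanocyte markers above. In −dox cells the Mitf change was 0.83, without overlap of arrays, and was not called. Tsc2, which restrains mTORC1, rose by 0.94 in +dox cells, and Nprl2, which restrains it when amino acids are short, fell by 0.64. In −dox cells Nprl2 had a change of -0.43 that was not called. Tsc2 overlapped there, with 7.80, 8.57 and 8.55 with trametinib, against 8.64, 8.19 and 8.06 with DMSO.

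**Figure D5:**
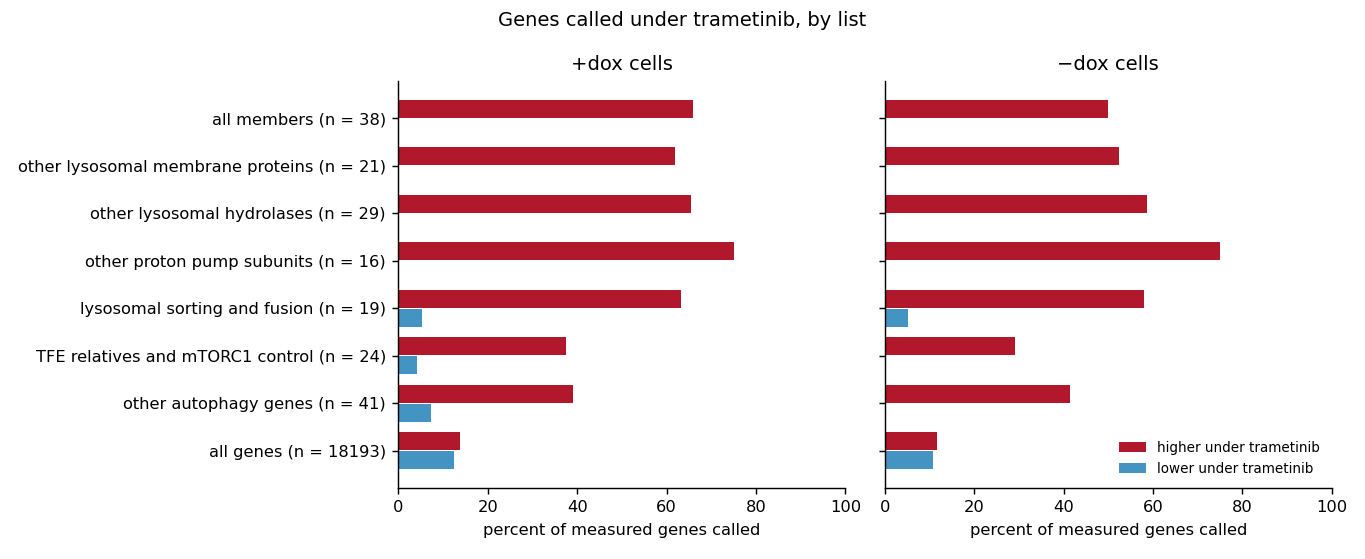
Percentage of measured genes called higher or lower with trametinib (horizontal axis) for the members, the 6 other lists and all genes, with +dox cells in the left panel and −dox cells in the right. Among all genes 13.8% were called higher in +dox cells and 11.6% in −dox cells, against 65.8% and 50.0% of the members.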

How the data were processed

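Total RNA of C790 cells was hybridised to Affymetrix mouse genome arrays. RMA in Chipster was the normalisation run by the authors, and the deposited table gives log2 intensities of probe sets, which were not changed further. Of 45101 probe sets, 34945 name a single gene in the platform annotation, 932 name several and 9211 are not named here. Only the first kind was used, and each gene was represented by its brightest probe set (largest mean of the 12 arrays), which gave 18193 genes. The table holds no detection calls. The background level, 4.87, is the 95th percentile among 84 probe sets of chemosensory receptor genes (olfactory, vomeronasal, taste), by their mean. Array medians ran from 5.18 to 5.37.

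Tests used lmFit and eBayes of limma 3.58.1 (R 4.3.3) with 1 mean per group over the 12 arrays, with Benjamini-Hochberg adjustment over all genes, and called at an adjusted p under 0.05. The fit was tested on simulated data. Errors are standard errors of the fit unless named SD. The members and lists were chosen with earlier results of these data known, and list counts are descriptions without a set test. Values on every array are given for Tfeb, Tfe3 and the 6 members with the largest called rise and fall per comparison. For the difference between responses they are given for the 3 with the smallest p. Dusp6 is shown as a check of the drug. A few others (Gusb, Map1lc3b and Rragd, with Pla2g15 and Tsc2 in a single cell state) were chosen after their values were seen. Of the other lists, up to 4 called genes in the more frequent and 2 in the other direction are named. Same-numbered arrays deviated together, with a correlation over 0.1 in every pair, in +dox cells with trametinib (0.16 to 0.45), between the states under DMSO (0.17 to 0.34) and under trametinib (0.21 to 0.29). Arrays with different numbers reached 0.19 in +dox cells with trametinib, 0.31 between the states under DMSO and 0.12 under trametinib, though most were negative. No label states a pairing of same-numbered arrays. Alternatives were a replicate block, the compared arrays alone, other probe set rules, a filter at the background level, quantile normalisation, centring, array weights, a trended robust prior, stricter thresholds and each array left out. Promoter sequences come from RefSeq (GRCm38.p6) and were searched in Python 3.11.15.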

Additional observations from a re-analysis of the deposited data

How the results depend on the processing

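Of the 25 members that rose with trametinib in +dox cells, 18 were called under every alternative fit, probe sets tested one by one included, and with each array left out in turn, as were 13 of the 19 in −dox cells, 0 of the 6 called between the states under DMSO and 0 of 1 under trametinib. None of these calls turned to the opposite direction. The median difference between the responses, where no member was called, did change sign, from 0.15 to -0.03 with each array centred on its median. The median over all genes moved with it, from -0.02 to -0.21. Stricter rules and other fits moved the counts of called members. A fold over 2 left 11 higher in +dox cells and 5 in −dox cells. For the members called lower with trametinib (0 in each state), testing only genes above background gave 1 in −dox cells, and array weights gave 1 in +dox cells and 2 in −dox cells, and raised the number called higher in −dox cells to 26. Between the states under DMSO (2 higher, 4 lower), the arrays of the compared groups alone gave 0 higher and 0 lower, the mean of probe sets 0 higher and 7 lower, probe sets tested one by one 0 higher and 2 lower, a further quantile normalisation 1 higher, array weights 11 lower, a fold over 2 gave 0 higher and 1 lower, and an adjusted p under 0.01 gave 0 higher and 1 lower. Under trametinib (1 lower), the replicate block gave 2 lower, centring each array on its median 2, array weights 4, and a fold over 2 and an adjusted p under 0.01 gave 0 each. The cause was not tested.

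With each array left out in turn, members called higher with trametinib numbered 22 to 26 in +dox cells and 15 to 20 in −dox cells, and members called lower 0 to 0 in +dox cells and 0 to 1 in −dox cells. Between the states, the counts were 0 to 2 higher and 1 to 6 lower under DMSO, 0 to 0 higher and 0 to 2 lower under trametinib, and 0 to 0 in either direction for the difference between the responses. In −dox cells, same-numbered arrays deviated together less clearly (r = 0.30, 0.46 and 0.02). The main fit took the replicate numbers as pairs in no comparison, and the replicate block was an alternative to it. In −dox cells with trametinib, the block called Ctsf (adjusted p = 0.013), Map1lc3b (0.0183) and Mcoln1 (0.0177) in limma and ended the call of Ulk1 (0.0509). Beyond the calls given in the report, the replicate block changed no other member call. Centring each array moved all −dox changes with trametinib by 0.13 and all differences between the responses by -0.18. E-boxes were in 12 of 35 members (34.3%, against 6.86% of all genes) when only the bases before the start were read, and the extended E-box in 4 (11.4%, against 0.907%).

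The number of arrays limits what single members can show. Differences were tested with 3 arrays a group, and the table gives no detection calls, so the background level stands in for them.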
